A study of Mus musculus with 4 samples.

Results

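The macrophages of the mouse testis were followed through 10 marker genes, Adgre1, Mrc1, Cd163, Csf1r, Cx3cr1, C1qa, C1qb, C1qc, Lyz2 and Cd74. The genes were taken by name from a table of 14984 genes, and all 10 had a row and passed the filter on low values. Ribosome footprints, short pieces of mRNA shielded by ribosomes from digestion, were sequenced from testes of day 10 mice. The tested samples were 2 Eif5 cKO libraries, from mice made by crossing Eif5 fl/fl animals with Stra8-Cre animals, and they were set against 2 control libraries, whose alleles the labels do not give. Stra8-Cre acts in male germ cells, so macrophages and the other somatic cells of the Eif5 cKO testis were meant to keep Eif5, which encodes the translation initiation factor eIF5. The question here was whether the footprints of these bystander cells differed when the deletion was made in germ cells. The labels do not state whether libraries of the same group are from different animals, and the p-values therefore reflect variation among these libraries alone, possibly of technical origin.

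Macrophages are the main immune cells of the testis. They lie in the interstitium beside the Leydig cells and on the surface of the seminiferous tubules, and in the adult mouse the interstitial cells are rich in the receptor CSF1R while the peritubular cells are rich in MHC class II. They survive on CSF1, clear dead cells and debris, and support Leydig cells and spermatogonia. In whole tissue, a higher footprint level can come from more macrophages, more mRNA in each or more ribosomes on each mRNA, and these cannot be told apart here.

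The libraries held 2296938 and 2782527 recovered reads in Eif5 cKO replicates 1 and 2, and 2934609 and 2225964 in control replicates 1 and 2. Values below are reads divided by a size factor for each library. Eif5 itself had values of 173 and 266 in Eif5 cKO testes, against 365 and 304 in control testes, and its log2 fold change of -0.63 (SE 0.25) did not pass (limma adjusted p = 0.319). Of 10 germ cell markers 8 fell in Eif5 cKO testes by limma, among them the germ cell surface protein gene Tex101 (log2 fold change -1.99, SE 0.23) and the synaptonemal complex gene Sycp1 (-1.77, SE 0.26). Without control replicate 1 only 1 of these 10 was called, without control replicate 2 there were 4, and without Eif5 cKO replicate 1 there were 5. Eif5 cKO replicate 2 stood apart in its neutrophil genes, as given with Lyz2.

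None of the 10 macrophage markers passed the test, although 9 of them had a higher mean in Eif5 cKO than in control testes. limma with Benjamini-Hochberg adjustment over 12095 genes called 0 of the 10, and so did edgeR, DESeq2 and limma-voom. Adgre1 and Mrc1 had an unadjusted p under 0.05 in limma. Among all genes tested, 0.0744% were called higher, 0.604% were called lower, 0.678% were called in either direction and 4.32% were higher with an unadjusted p under 0.05, and 10.6% had such a p in either direction. The median log2 fold change of the markers was 0.40, against 0.0032 for all genes tested, of which 50.3% were positive. For 5 of the 10 markers both Eif5 cKO values lay above both control values, and for 0 did both lie below; the first pattern held for 20.0% of all genes tested, the second for 20.9% and either for 40.8%. Transcripts of 1 cell type move together with the number of those cells, so the 10 genes are not 10 independent observations. With 2 libraries against 2, the smallest two-sided p of an exact permutation test is 0.333. The limma variance had 37.0 degrees of freedom from other genes of like intensity and 2 from a gene's own replicates. Its SEs, intervals and p-values therefore reflect little of the replicate spread of the gene itself.

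**Figure D1:**
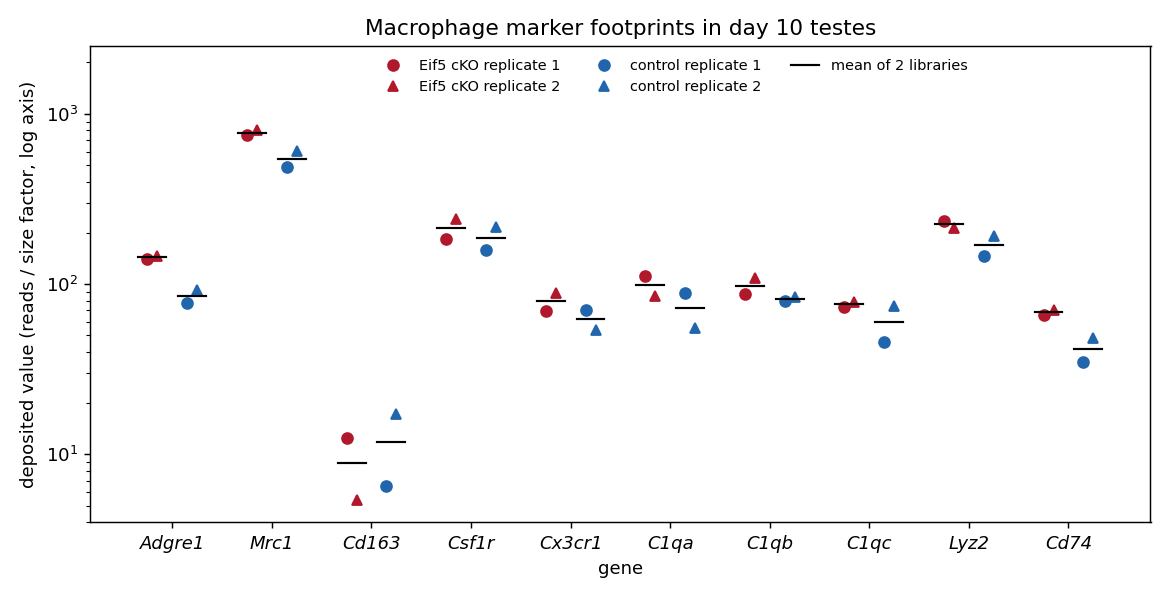
Deposited value (reads divided by the library's size factor, log axis) of each macrophage marker in the 2 Eif5 cKO libraries (red) and the 2 control libraries (blue), with circles for replicate 1, triangles for replicate 2 and a bar for each mean of 2. Both red points lie above both blue points for Adgre1, Mrc1, C1qb, Lyz2 and Cd74, and the groups overlap for the other 5 genes.

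Adgre1, Mrc1 and Cd163 encode surface proteins of resident macrophages. Adgre1, on chromosome 17 at 57358581 to 57483529 (GRCm38), encodes F4/80, an adhesion G protein-coupled receptor used to identify mouse macrophages. Its values were 141 and 146 in Eif5 cKO testes, against 77.5 and 91.8 in control testes. These rested on 124 and 163 reads in Eif5 cKO and 95 and 80 in control. Both Eif5 cKO libraries lay well above both controls, and the replicates of each group were close. Its log2 fold change, 0.76 (SE 0.30, with a 95% interval of 0.16 to 1.36), was the largest of the 10 and did not pass (limma adjusted p = 0.309). Its adjusted p lay between 0.258 and 0.995 over the alternatives.

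Mrc1 (chromosome 2, 14229414 to 14332023) encodes the mannose receptor CD206, which takes up glycoproteins for degradation. Mrc1 values were 749 and 799 in Eif5 cKO testes, against 484 and 607 in control testes. The groups did not overlap, and the controls differed more from each other than the Eif5 cKO libraries did. On the log2 scale Mrc1 was 0.51 higher (SE 0.23, with a 95% interval of 0.06 to 0.97) and did not pass (limma adjusted p = 0.389). Mrc1 supplied 43.3% and 43.5% of all reads of the 10 markers in Eif5 cKO libraries, and 40.6% and 42.2% in control libraries.

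Cd163 (chromosome 6, 124304636 to 124330529) encodes the scavenger receptor for haemoglobin bound to haptoglobin. It was barely covered, with 11 and 6 reads in Eif5 cKO libraries and 8 and 15 reads in control libraries. Its values of 12.5 and 5.38 in Eif5 cKO and 6.53 and 17.2 in control overlapped, so that the replicates differed more than the groups. The log2 fold change of -0.34 had an SE of 0.91 and a 95% interval from -2.17 to 1.502 (limma adjusted p = 0.937), so a difference of the size seen for Adgre1 was not detectable for this gene at this depth. Cd163 was the single marker with a lower mean in Eif5 cKO testes, and its sign turned without Eif5 cKO replicate 2 (0.20) or control replicate 2 (0.30).

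**Figure D2:**
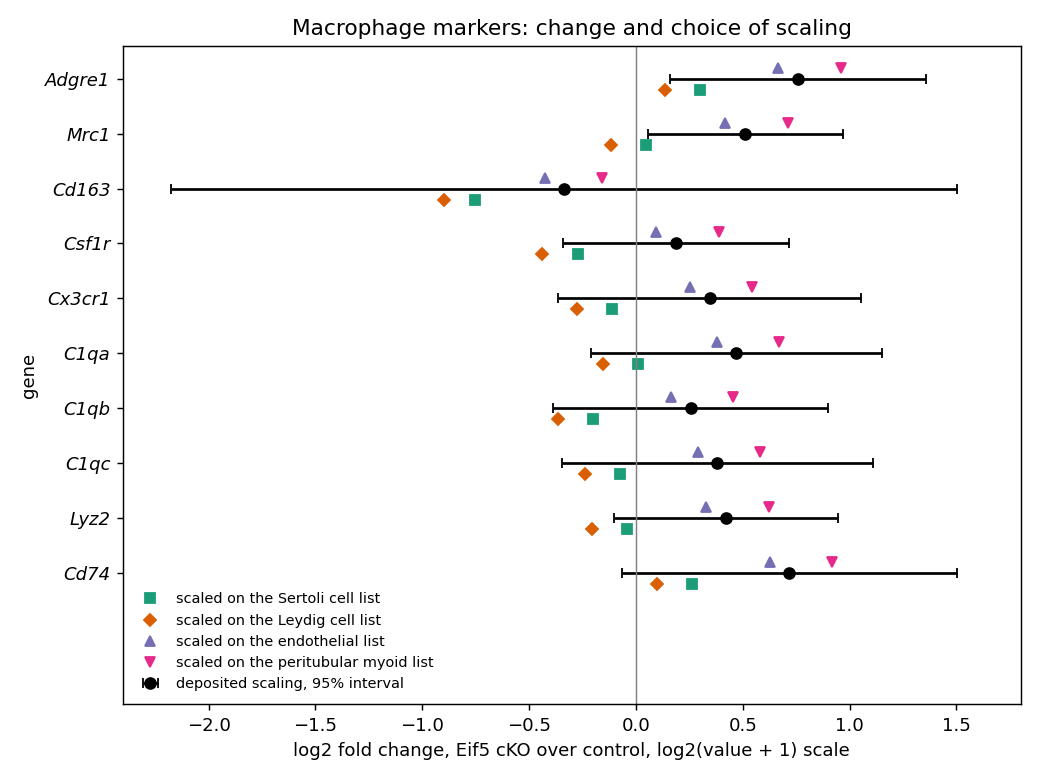
Log2 fold change of each marker, Eif5 cKO over control, on the log2(value + 1) scale: black points with 95% intervals from limma on the deposited scaling, and coloured points with libraries scaled on the summed markers of Sertoli cells (squares), Leydig cells (diamonds), endothelial cells (upward triangles) and peritubular myoid cells (downward triangles). The intervals of Adgre1 and Mrc1 alone lie above 0, and each marker lies to the left of its black point under the Sertoli, Leydig and endothelial scalings and to the right under the myoid scaling.

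Csf1r and Cx3cr1 encode receptors. Csf1r, on chromosome 18, encodes the receptor for CSF1 and IL-34, on which tissue macrophages depend for survival. Its values were 185 and 241 in Eif5 cKO testes, against 158 and 217 in control testes, and the groups overlapped. At a log2 fold change of 0.19 (SE 0.26; 95% interval from -0.34 to 0.72; limma adjusted p = 0.853), Csf1r had the smallest positive value of the 10. It was -0.0013 without Eif5 cKO replicate 2 and -0.037 without control replicate 1. Cx3cr1 (chromosome 9, 120048683 to 120068296) encodes the receptor for fractalkine on monocytes and macrophages. Cx3cr1 values were 69.3 and 88.8 in Eif5 cKO testes, against 70.2 and 53.9 in control testes, with 1 control above 1 Eif5 cKO library (log2 fold change 0.35, SE 0.35; limma adjusted p = 0.780).

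The 3 chains of C1q, the recognition protein of the classical complement pathway, are assembled in equal numbers and are made mostly by macrophages. Their genes lie side by side on chromosome 4 in the order C1qb (136880126 to 136886200), C1qc (136889801 to 136892936) and C1qa (136895916 to 136898844), with 3600 and 2979 bases between neighbours. C1qa had values of 111 and 85.2 in Eif5 cKO testes, against 89.0 and 55.1 in control testes. The 2 controls stood far apart, and their exact 95% Poisson intervals, 73.0 to 107 for control replicate 1 and 40.6 to 73.1 for control replicate 2, only just met. C1qb had values of 87.5 and 109 in Eif5 cKO, against 79.2 and 83.8 in control, without overlap but with a gap smaller than the spread of the Eif5 cKO libraries. C1qc had values of 73.8 and 79.0 in Eif5 cKO, against 45.7 and 74.6 in control, and control replicate 2 stood at the level of the Eif5 cKO libraries. The log2 fold changes were 0.47 for C1qa (SE 0.34), 0.26 for C1qb (SE 0.32) and 0.38 for C1qc (SE 0.36), with limma adjusted p of 0.665, 0.833 and 0.757. The read ratio of C1qa to C1qb was 1.27 and 0.785 in Eif5 cKO libraries, against 1.12 and 0.658 in control libraries, so the balance of the chains varied as much within a group as between groups.

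Lyz2 (chromosome 10, 117277541 to 117282272) encodes lysozyme M, an enzyme that cleaves bacterial cell walls. Its values were 235 and 214 in Eif5 cKO testes, against 146 and 192 in control testes, and the groups did not overlap. Lyz2 was 0.42 higher on the log2 scale (SE 0.26; 95% interval from -0.10 to 0.94) and did not pass (limma adjusted p = 0.594). The neighbouring paralog Lyz1, 5522 bases away, had no row in the table, and reads that match both genes may have been counted for Lyz2 or dropped. Lyz2 is also made by neutrophils, whose genes were unevenly spread. S100a9, a neutrophil calcium-binding protein gene, had 266 reads in Eif5 cKO replicate 2 against 3 in Eif5 cKO replicate 1, and 21 and 28 in the controls. The neutrophil granule gene Ngp had 62 reads in Eif5 cKO replicate 2, 0 in Eif5 cKO replicate 1, and 3 and 0 in the controls. These 2 genes are named because of their values. The 4 of 10 neutrophil markers with a row took 0.000261% and 0.0148% of reads in Eif5 cKO libraries and 0.00106% and 0.00144% in control libraries. Lyz2 itself was lower in Eif5 cKO replicate 2 than in replicate 1. Without Eif5 cKO replicate 2 the median log2 fold change of the 10 markers was 0.40. Whether neutrophils contributed to the Lyz2 values was not tested.

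Cd74, on chromosome 18, encodes the invariant chain that escorts MHC class II molecules to the compartment where they load peptide. Its values were 65.9 and 70.9 in Eif5 cKO testes, against 35.1 and 48.2 in control testes, from 58 and 79 reads in Eif5 cKO and 43 and 42 reads in control. Both Eif5 cKO libraries stood above both controls. Cd74 was 0.72 higher on the log2 scale (SE 0.39; 95% interval from -0.07 to 1.504), next after Adgre1, and did not pass (limma adjusted p = 0.529).

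**Figure D3:**
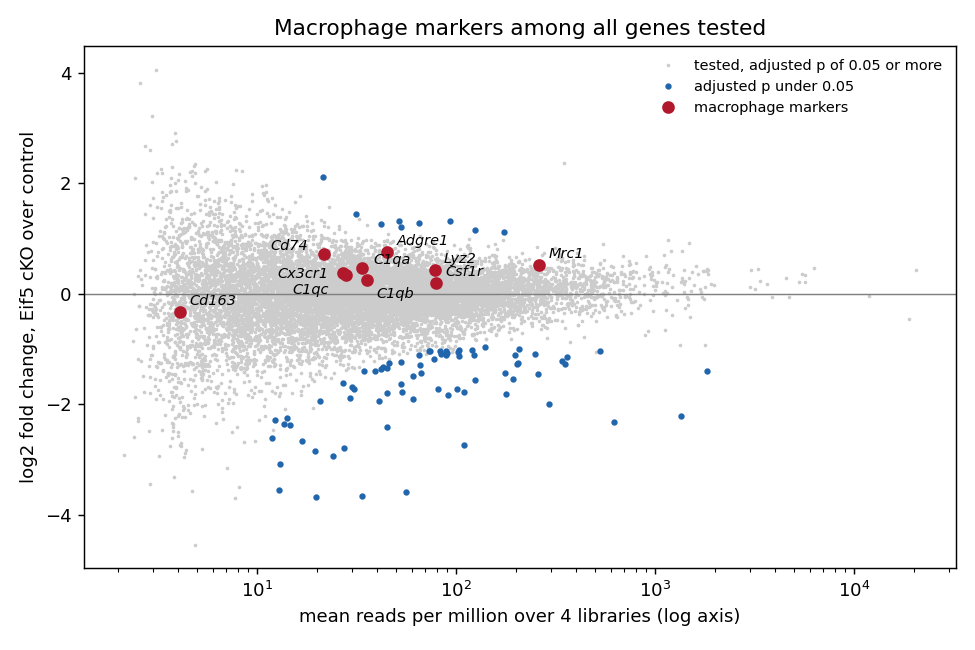
Log2 fold change, Eif5 cKO over control, against mean CPM over the 4 libraries (log axis) for the 12095 genes tested: grey for genes that did not pass, blue for the 82 called genes and red for the 10 macrophage markers. The markers lie within the grey cloud, 9 of them above 0, and Cd163 sits near the low end of coverage.

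The promoters of 4 markers are shown because Mrc1 and Lyz2 had the library profiles closest to the mean of the 10 (Euclidean distances of 0.165 and 0.119 over 4 libraries, centred log2 values) and C1qb and C1qc are adjacent genes for chains of 1 protein. Each sequence is the 250 bases before a transcript start in the RefSeq table (GRCm38.p6), 5′ to 3′ on the gene's strand, at chr2:14229164-14229413 (plus strand) for Mrc1, chr10:117282273-117282522 (minus) for Lyz2, chr4:136886201-136886450 (minus) for C1qb and chr4:136892915-136893164 (minus) for C1qc. Capitals mark GAGGAA or its reverse complement TTCCTC, a core bound by PU.1, the transcription factor of the myeloid lineage that Spi1 encodes.
Mrc1: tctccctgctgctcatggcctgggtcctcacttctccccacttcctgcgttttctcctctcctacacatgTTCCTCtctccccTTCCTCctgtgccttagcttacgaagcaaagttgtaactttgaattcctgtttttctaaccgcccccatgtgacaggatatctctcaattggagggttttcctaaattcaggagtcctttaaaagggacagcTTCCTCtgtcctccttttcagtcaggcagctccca
Lyz2: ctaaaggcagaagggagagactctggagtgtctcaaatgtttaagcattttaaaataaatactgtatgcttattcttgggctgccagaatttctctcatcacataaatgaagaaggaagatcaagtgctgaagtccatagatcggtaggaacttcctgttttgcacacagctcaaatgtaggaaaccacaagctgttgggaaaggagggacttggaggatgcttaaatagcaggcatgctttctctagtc
C1qb: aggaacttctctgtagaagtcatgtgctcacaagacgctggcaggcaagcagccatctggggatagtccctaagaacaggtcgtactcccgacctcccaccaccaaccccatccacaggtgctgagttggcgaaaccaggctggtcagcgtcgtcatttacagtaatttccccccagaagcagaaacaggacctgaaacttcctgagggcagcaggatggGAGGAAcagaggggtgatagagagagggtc
C1qc: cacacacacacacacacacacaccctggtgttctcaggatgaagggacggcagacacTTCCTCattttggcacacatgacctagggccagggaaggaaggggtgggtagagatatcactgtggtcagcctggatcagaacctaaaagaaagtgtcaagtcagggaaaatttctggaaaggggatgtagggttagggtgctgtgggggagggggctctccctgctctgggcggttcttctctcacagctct
The Mrc1 window held 3 such matches, at first bases -180, -167 and -35 from the start, C1qb held 1 at -30 and C1qc held 1 at -193. Lyz2, Cd163 and Cx3cr1 held 0. A match was thus held by 3 of the 6 markers whose window was used, against 25.9% of the 27025 genes with a window in the RefSeq table. The C1qc and Cd163 windows end inside their genes' annotated spans, at starts other than the outermost. No window was used here for Adgre1, C1qa, Csf1r and Cd74. A match is a run of letters and not a measured binding site.

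The libraries differed along the whole set of markers. Eif5 cKO replicate 2 gave the highest value of the 4 libraries for 7 of the 10 genes and Eif5 cKO replicate 1 for 2, while control replicate 1 gave the lowest for 7 and control replicate 2 for 2. The mean centred log2 profile of the markers was 0.20 and 0.18 in Eif5 cKO libraries, against -0.33 and -0.04 in control libraries, so control replicate 1 stood furthest from the rest. The median log2 fold change of the 10 was 0.29 without control replicate 1 and 0.52 without control replicate 2. Of the genes outside every list, the 3 closest to that profile were Mme (distance 0.0232), Pik3r1 (0.0267) and Trub1 (0.0373), from 9700 candidates over 4 libraries. Mme, which encodes the cell surface peptidase neprilysin, had values of 1435 and 1392 in Eif5 cKO testes, against 977 and 1194 in control testes. The likeness is a description over 4 libraries that share their scaling.

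Ratios between markers of 1 library do not depend on scaling. Cd74 reads per Csf1r read numbered 0.356 and 0.294 in Eif5 cKO libraries, against 0.222 and 0.222 in control libraries. Adgre1 reads per Csf1r read numbered 0.761 and 0.606 in Eif5 cKO, against 0.490 and 0.423 in control. Mrc1 per Adgre1 ran the other way, at 5.31 and 5.47 in Eif5 cKO and 6.24 and 6.61 in control. Lyz2 per Csf1r overlapped, at 1.27 and 0.888 in Eif5 cKO and 0.923 and 0.884 in control, as did Cx3cr1 per Csf1r. Groups did not overlap for 4 of the 9 ratios computed, which were chosen with the values known and are given without a test. Each of these 4 uses Csf1r or Adgre1, so they are not separate observations. With 2 libraries against 2, a ratio unrelated to group separates with a probability of 0.333. Among all genes tested, values did not overlap in either direction for 40.8%.

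The summed reads of the 10 markers took 0.0663% (exact binomial 95% interval 0.0630% to 0.0697%) and 0.0737% (0.0705% to 0.0769%) of the Eif5 cKO libraries. They took 0.0498% (0.0472% to 0.0524%) and 0.0564% (0.0533% to 0.0596%) of the control libraries. These intervals cover counting error only, since reads without molecular identifiers are not independent molecules. The summed value was 1785 ± 77.1 in Eif5 cKO and 1316 ± 176 in control (SD, n = 2 each), a ratio of 1.36, and without Mrc1 the ratio was 1.31.

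Whether the markers were higher relative to other somatic cells of the testis depended on the cell type: both Eif5 cKO libraries exceeded both controls per endothelial and per peritubular myoid read, but not per Sertoli or Leydig cell read. Per 1000 reads of 10 Sertoli cell markers, the macrophage markers had 20.3 and 31.6 reads in Eif5 cKO libraries, against 27.8 and 23.6 in control libraries, and the group means of 25.9 ± 8.01 and 25.7 ± 2.95 (SD, n = 2 each) were nearly equal. The Sertoli cell sum rests on Clu, which supplied 82.7% to 86.3% of it in each library; without Clu the values were 117 and 186 in Eif5 cKO and 164 and 173 in control. Per 1000 reads of 7 Leydig cell markers the values were 584 and 711 in Eif5 cKO, against 753 and 711 in control. On the Leydig cell scale neither Eif5 cKO library exceeded a control. Per 1000 reads of 8 endothelial markers the values were 1216 and 1824 in Eif5 cKO, against 1128 and 1208 in control, with Eif5 cKO replicate 1 close to the controls. Per 1000 reads of 6 peritubular myoid markers they were 293 and 391 in Eif5 cKO, against 201 and 233 in control. Scaling the libraries on the Sertoli cell list left 4 of the 10 markers positive with a median of -0.058, and scaling on the Leydig cell list left Adgre1 and Cd74 positive with a median of -0.22. Scaling on the endothelial and peritubular myoid lists left 9 of 10 positive, with medians of 0.31 and 0.60. These 4 scalings moved the median of all genes tested to -0.45, -0.62, -0.088 and 0.20. Relative to it, the median of the markers stood 0.40 higher with the Sertoli cell list and 0.39 with the Leydig cell list. With the endothelial and myoid lists it stood 0.40 higher in each. A scaling multiplies each library by 1 constant and shifts all genes nearly alike, so this difference was bound to stay the same. The 4 values are therefore not separate support. The Sertoli and Leydig cell lists had medians of 0.37 (10 genes) and 0.72 (7 genes) on the deposited scale, with 0 genes called in limma and 5 at an unadjusted p under 0.05 in each, all higher in Eif5 cKO except the Sertoli cell transcription factor gene Gata1 (-0.75). Over all genes tested 10.6% had an unadjusted p under 0.05 in either direction. edgeR called 0 in both lists, and DESeq2 and limma-voom each called 1 Sertoli cell gene and 0 Leydig cell genes. Without Eif5 cKO replicate 2 limma called 3 Leydig cell genes and 1 Sertoli cell gene, and without Eif5 cKO replicate 1 it called 1 Leydig cell gene and 0 Sertoli cell genes. With library totals as the scale, 1 Sertoli cell gene was called. The share of germ cell markers was 0.0751% and 0.103% of reads in Eif5 cKO libraries, against 0.252% and 0.215% in control libraries, and its part in the higher share of macrophage markers was not tested.

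**Figure D4:**
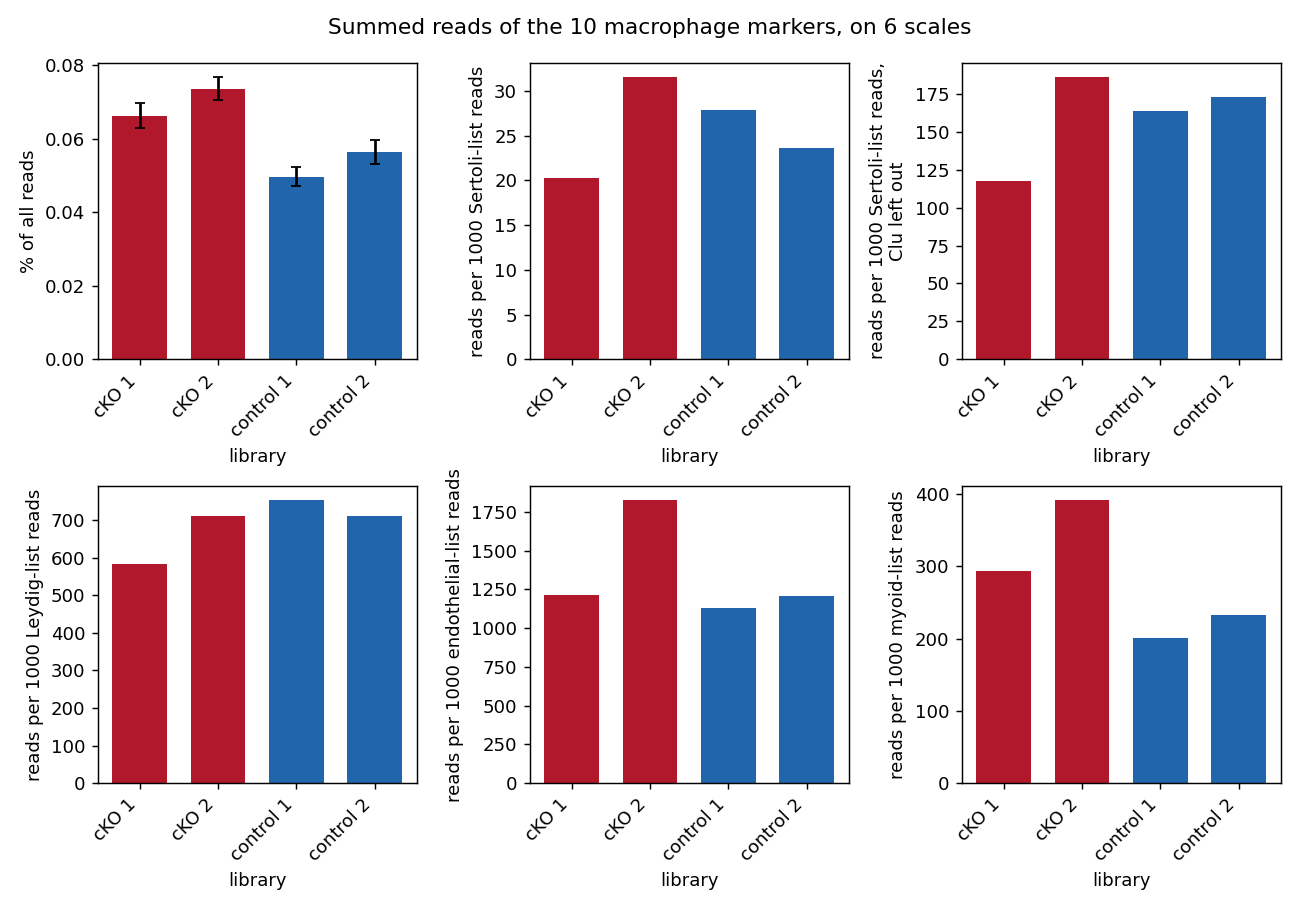
Summed reads of the 10 macrophage markers in each library, as a percentage of all reads (bars with exact binomial 95% intervals), per 1000 reads of Sertoli cell markers, the same with Clu left out, and per 1000 reads of Leydig cell, endothelial and peritubular myoid markers, with Eif5 cKO in red and control in blue. Both Eif5 cKO bars exceed both control bars as a percentage and on the endothelial and myoid scales, narrowly for replicate 1 on the endothelial scale, and not on the other 3.

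Genes related to macrophage functions were read from 7 related lists of 122 genes, of which 99 had a row and 78 were tested. These lists are not limited to genes of macrophages, and in whole testis the cell type behind each footprint is not known. limma called 0 of the 78, and so did edgeR, DESeq2 and limma-voom. In limma 7 had an unadjusted p under 0.05 in either direction, a share no higher than the 10.6% of all genes tested. All of the 7 but Cd55 were higher in Eif5 cKO, and 4.32% of all genes tested were higher with such a p. Of the 78 genes 60 had a positive log2 fold change, against 50.3% of all genes tested. Among the positive genes, Timd4, Flt3 and Spi1 passed the filter on low values only through the Eif5 cKO libraries. Cd55, a negative gene, passed it only through the control libraries. Both Eif5 cKO values lay above both controls for 22 of the 78 and below both for 3. Over all genes tested these patterns held for 20.0% and 20.9%. The Sertoli and Leydig cell lists also had positive medians, of 0.37 and 0.72, while the endothelial and peritubular myoid lists had 0.037 and -0.20. A positive count was therefore not particular to the related lists.

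Among growth factors and receptors of the lineage (8 tested, median 0.061), Csf1, the main ligand of CSF1R, had values of 86.3 and 54.7 in Eif5 cKO testes, against 54.7 and 75.8 in control testes. The fractalkine gene Cx3cl1, ligand of CX3CR1, had 264 and 179 in Eif5 cKO, against 143 and 320 in control. Neither ligand separated the groups. The list's smallest p belonged to the GM-CSF receptor gene Csf2ra, with 16 and 23 reads in Eif5 cKO and 12 and 2 in control (limma adjusted p = 0.475), and then to the cytokine receptor gene Flt3, with 11 and 13 reads in Eif5 cKO and 9 and 0 in control (0.567). Flt3 passed the filter on low values only through the Eif5 cKO libraries. Ccl2, a chemokine that draws monocytes, had 11 and 29 reads in Eif5 cKO and 4 and 11 in control.

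Of 7 transcription factors of the myeloid lineage that were tested, 6 were positive (median 0.47). Maf, a factor of mature macrophages, had values of 99.97 and 81.6 in Eif5 cKO testes, against 53.0 and 67.7 in control testes. Its groups did not overlap, and it did not pass (limma adjusted p = 0.573). Spi1 had 11 and 18 reads in Eif5 cKO and 10 and 8 in control, too few to place it. Spi1 also passed the filter on low values only through the Eif5 cKO libraries.

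Among 11 other complement genes (median 0.23), 9 were positive. C3, the central component of the cascade, had values of 141 and 125 in Eif5 cKO, against 84.1 and 116 in control. Cd55, an inhibitor of complement on cell surfaces, had 2 and 8 reads in Eif5 cKO and 29 and 14 in control, the largest negative log2 fold change of the list (-1.99, SE 0.91; limma adjusted p = 0.419). Cd55 passed the filter on low values only through the control libraries. Masp1, a protease of the lectin pathway, had 291 and 227 in Eif5 cKO, against 137 and 269 in control.

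Of the 7 tested genes of MHC class II presentation (median 0.30), the class II chain genes H2-Aa and H2-Eb1 stood without overlap, as Cd74 did. H2-Aa had values of 53.4 and 22.4 in Eif5 cKO testes, against 22.03 and 9.18 in control testes, a gap between the groups far smaller than the spread within them (limma adjusted p = 0.469). H2-Eb1 had 24.99 and 20.6 in Eif5 cKO, against 8.16 and 16.1 in control (0.674). H2-Ab1 overlapped, and the 3 class II regulators Rfx5, Rfxap and Rfxank had negative values, from -0.38 to -0.24.

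Phagocyte receptors and adaptors formed the largest list (25 tested, 20 positive, median 0.36). Timd4, a receptor for phosphatidylserine on dying cells, had 13 reads in each Eif5 cKO library and 0 in each control library. It passed the filter on low values only through the Eif5 cKO libraries. Against an assumed floor of 3 reads per control library, its mean in Eif5 cKO was 4.49-fold higher. This ratio leaves out counting error on the 13 reads, and Timd4 did not pass the test (limma adjusted p = 0.362). With Timd4 at that ratio the list's median stayed the same. Itgb2, the shared beta chain of the leukocyte integrins, had values of 37.5 and 27.8 in Eif5 cKO, against 8.16 and 16.1 in control (0.392). Cd68, a lysosomal glycoprotein of macrophages, had 39.8 and 38.6 in Eif5 cKO, against 29.4 and 23.0 in control. Folr2 and Lyve1, markers of a resident macrophage subset, overlapped between groups, with 43.2 and 24.2 for Folr2 in Eif5 cKO and 26.9 and 49.4 in control.

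Lysosomal genes, which all cell types use, had a median of 0.14 (15 tested, 12 positive), from -0.18 to 0.47. Hexa, a subunit of beta-hexosaminidase, had 751 and 601 in Eif5 cKO and 520 and 507 in control (limma adjusted p = 0.572), and the protease gene Ctsl, which Sertoli cells also express, had 20234 and 16745 in Eif5 cKO and 11407 and 15384 in control (0.686). Of 23 cytokine and activation genes 5 were tested (median 0.061), 7 fell below the filter and 11 had no row, among them Tnf, Il1b and Il6. Pf4, a chemokine made by megakaryocytes and resident macrophages, had values of 354 and 275 in Eif5 cKO, against 127 and 306 in control, and overlapped (limma adjusted p = 0.379). Apoe, an apolipoprotein, had 1271 and 1133 in Eif5 cKO, against 927 and 1180 in control (0.816).

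**Figure D5:**
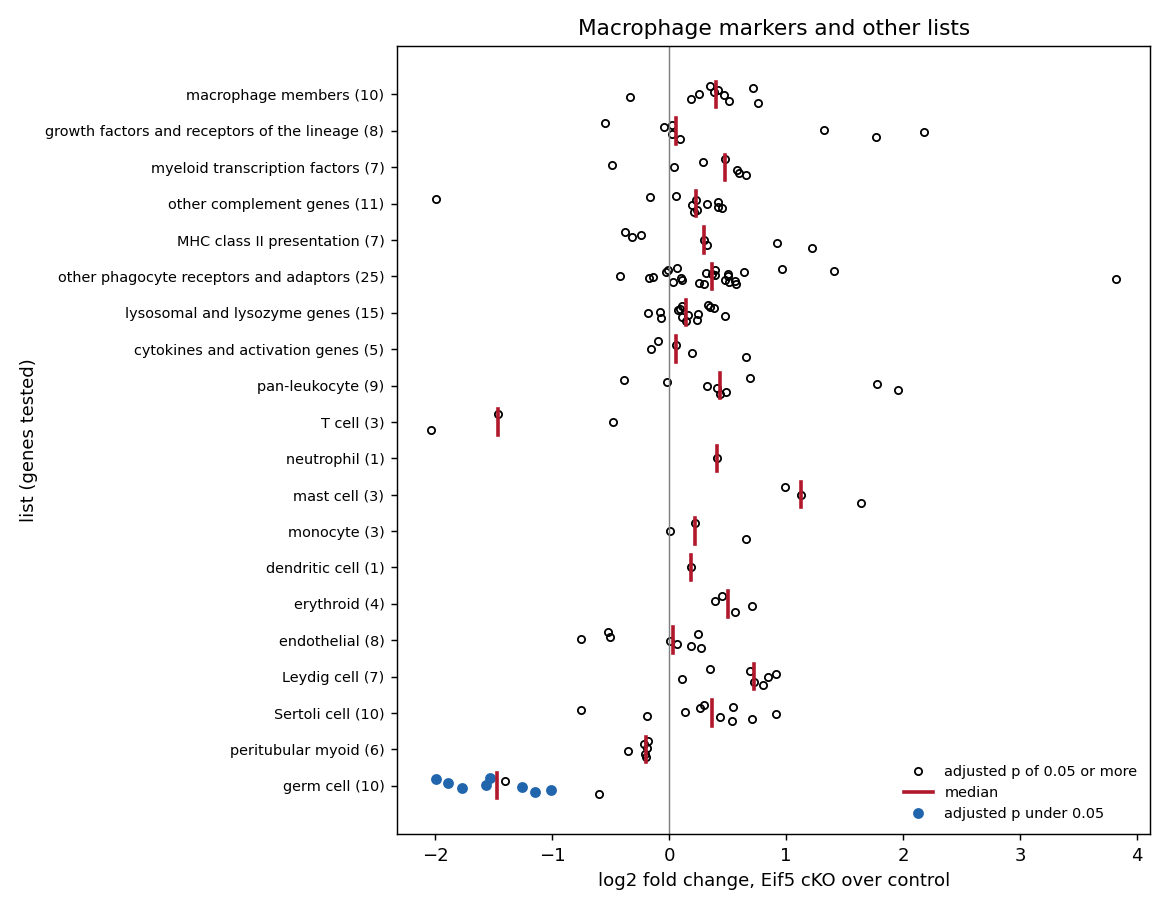
Log2 fold changes, Eif5 cKO over control, of tested genes in the macrophage markers, the 7 related lists and the cell type lists with a tested gene, with a red bar at each median and filled blue points for called genes. All called points belong to germ cells, and the outermost point, near 3.82, is Timd4, whose fitted value depends on the pseudocount because both controls had 0 reads.

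Other leukocytes were sparse. Of 10 markers shared by all leukocytes 9 were tested, 0 passed by limma, edgeR, DESeq2 or limma-voom, and 2 had an unadjusted p under 0.05 in limma (median 0.44). Ptprc, which encodes CD45, had 33 and 43 reads in Eif5 cKO and 33 and 25 in control. The macrophage markers had 5060 and 5452 reads per 1000 reads of this list in Eif5 cKO libraries, against 5615 and 5864 in control libraries. Of 9 T cell markers 3 were tested and all had negative log2 fold changes (median -1.46), with 11 and 1 reads of Cd3e in Eif5 cKO and 23 and 18 in control. For B cells 4 of 6 markers had a row and 0 were tested, and none of 6 NK cell markers had a row. Of 6 mast cell markers, the 3 tested were positive (median 1.13). Cpa3 led them with 25 and 24 reads in Eif5 cKO and 7 and 8 in control. Cpa3 passed the filter on low values only through the Eif5 cKO libraries. The count and median of the tested mast cell markers rest partly on that selection. Tpsb2 and Cma1 fell below the filter and had lower means in Eif5 cKO. Tpsb2 had a mean value of 7.80 in Eif5 cKO and 8.01 in control, and Cma1 had 8.58 and 10.4. The 3 tested monocyte markers had a median of 0.22. Zbtb46, the single tested dendritic cell marker, had a log2 fold change of 0.19, and S100a9, the single tested neutrophil marker, had 0.41. The 4 tested erythroid markers had a median of 0.51. Endothelial (8 tested) and peritubular myoid markers (6 tested) had medians of 0.037 and -0.20. None of these was called in limma.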

How the data were processed

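Ribosome footprints were measured in 4 testis libraries, grouped by their titles into 2 Eif5 cKO and 2 control. Per the submitters' processing notes, which give no versions, the tools were Bowtie2, STAR and featureCounts and the build was GRCm38; how strand and multi-mapping reads were handled is unstated there. The deposited columns, named raw counts, held a signal: reads divided by a size factor for each library. Multiplying back gave whole reads (relative tolerance 1e-06) for 100% of values, and 0 columns belonged to other samples. Each listed gene had at least 10 reads in total, so a gene with fewer has no row.

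limma 3.58.1 (R 4.3.3) with an intensity trend was run on log2(value + 1) with a single term, group, across the 12095 genes passing filterByExpr of edgeR 4.0.16 (minimum count 10) on the recovered reads. The pseudocount shrinks fold changes of weakly covered genes. Tests were two-sided, with Benjamini-Hochberg adjustment over all genes tested and calls at an adjusted p under 0.05. Scripts were tested on simulated reads. Alternatives were edgeR's quasi-likelihood test (92 genes called) and DESeq2 1.42.0 on recovered reads, limma-voom, other scalings, pseudocounts and filters, leaving out each library, and a replicate block. Scalings on the Leydig cell, endothelial and peritubular myoid lists and on the Sertoli cell list without Clu were added after seeing the data.

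The markers, the 7 related and 14 cell type lists, and the tests were chosen with earlier results of these data known. The rule for named genes took all 10 markers, Eif5, called genes of each list (up to 3), the 2 smallest p of each related list and the 3 genes of mean CPM at least 10 closest in profile. A gene of the transcription factor list that the rule takes is not reported here. Other genes named were chosen for their role or after their values were seen. Promoter sequences came from a RefSeq table of GRCm38.p6. RNA libraries were not analysed here, so translational efficiency was not computed, and transcript lengths were not used, so levels of different genes are not ranked.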

Additional observations from a re-analysis of the deposited data

How the results depend on the processing

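The count of macrophage markers called was 0 under all 19 alternatives. On the deposited scale 82 genes were called in all, and leaving out a library gave 10 to 346; an arm left with 1 library was assumed to vary like the other group. The median log2 fold change of the markers was 0.29 to 0.52 with a library left out. Scaling on Sertoli or Leydig cell markers turned it. Scaled on the endothelial list it was 0.31 with 47 genes called, and on the peritubular myoid list 0.60 with 42 called. Scaled on the Sertoli cell list it was -0.058, with 48 genes called and values of -0.27 for Csf1r, -0.20 for C1qb, -0.076 for C1qc, -0.040 for Lyz2 and -0.11 for Cx3cr1. Scaled on that list without Clu it was -0.22, with 347 genes called and values of -0.12 for Mrc1, -0.44 for Csf1r, -0.15 for C1qa, -0.37 for C1qb, -0.24 for C1qc, -0.21 for Lyz2 and -0.28 for Cx3cr1. Scaled on the Leydig cell list it was -0.22, with 1346 genes called and values of -0.12 for Mrc1, -0.44 for Csf1r, -0.15 for C1qa, -0.37 for C1qb, -0.24 for C1qc, -0.20 for Lyz2 and -0.28 for Cx3cr1. These scalings multiply each library by its own constant, which moved the median of all genes tested to -0.45, -0.62 and -0.62 for the Sertoli, Sertoli without Clu and Leydig lists. With a library left out, Csf1r ranged from -0.037 to 0.41 and Cd163 from -0.97 to 0.30, and the other 8 markers stayed positive. Of 189 single-marker values under the alternatives, 166 kept their direction and their side of the threshold, and 23 turned.

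With the replicate number of the titles as a block, 100 genes and 0 markers were called, and no call on a marker changed. Deviations of same-numbered libraries from their group means correlated at -0.047 over genes, so the numbers do not show a pairing.

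Depth limits Cd163 most, with 6 to 15 reads in a library, and Spi1, Timd4 and Flt3 likewise. Other markers had 42 to 891 reads in a library.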
